A study of Mus musculus with 9 samples.

Results

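Kupffer cells carrying the scavenger receptor Marco and the C-type lectin Clec4f were taken from single-cell RNA sequencing of injured mouse liver. A cell was a member when it had at least 200 detected genes, at least 3 unique molecular identifiers (UMIs, tags that count each captured transcript once) of Marco and at least 2 UMIs of Clec4f, Vsig4 and Timd4 together. It also had to hold at most 5 UMIs of Gpnmb and Spp1 together and fewer than 5 of the cycling genes Mki67, Top2a, Cenpe, Cenpf, Kif11 and Nusap1. This left 469 members among 4617 cells with at least 200 genes, of 4694 cells in all, a share of 10.2% (95% exact Clopper-Pearson interval, 9.30 to 11.1%). Members were thus selected on measured values, and the levels of these genes are given as a description.

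All members came from liver cells of C57BL/6J mice 6 to 8 weeks of age, genotype CluKO, given human recombinant clusterin during injection of carbon tetrachloride (CCl4), a hepatotoxin that scars the liver. The 6 samples with this label were deposited as 1 pooled matrix in which no cell is tied to a sample, and the design text names 3 such mice. The matrix was therefore 1 sample, no difference between mice or conditions could be tested, and the duration of CCl4 is not given by its labels. Wild-type livers after 0, 2 and 4 weeks of CCl4, 1 sample each, were not analysed here because the files used here pair no gene names with their rows.

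Kupffer cells are the macrophages that live inside the liver sinusoids. They clear bacteria, aged red cells and modified lipoproteins from portal blood through scavenger, complement and lectin receptors. Residents seeded before birth typically carry Timd4, a receptor for phosphatidylserine on dying cells. Macrophages that arise from monocytes in injured liver can take up Clec4f later, and another macrophage state at scars and lipid-laden sites carries Gpnmb, Spp1, Trem2 and Cd9.

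Depth per member was 2387 to 16450 UMIs with a median of 4139, and 2033445 UMIs were counted in all. Members had a median of 1783 genes and 1.98% mitochondrial UMIs, with at most 8.96%. All cell barcodes of the matrix were distinct. Levels are given as UMIs scaled to 1000000 of the summed counts of a group (CPM). Intervals are 95%, exact Poisson for levels and conditional binomial for ratios, and cover counting error only, because cells of 1 matrix are not replicates. Free RNA was present, since Hbb-bs, a haemoglobin chain, was counted in all members and all T cells.

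The genes used to choose the cells are given as a description, since the rule fixed that they were present. Marco had 3485 CPM (3404 to 3567), with 3 to 95 UMIs per cell and a median of 10. Clec4f, a galactose-binding lectin of mouse Kupffer cells, had 6099 CPM (5992 to 6207) and 1 to 63 UMIs per cell, with a median of 25. Both were counted in all members, Marco by the rule itself. Vsig4, the complement receptor that binds C3 fragments, had 5386 CPM (5286 to 5488) and a median of 21 UMIs. Timd4 had the lowest level of the 4, with 837 CPM (797 to 877), a median of 3 UMIs and UMIs in 88.5% of members (85.2 to 91.2%).

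The remaining 2 markers were not used to choose the cells. Cd163, the haemoglobin-haptoglobin receptor, had 1175 CPM (1128 to 1223), was counted in 84.0% of members (80.4 to 87.2%) and reached 31 UMIs in a cell, with a median of 4. Fcna, a ficolin that binds microbial sugars and starts the lectin pathway of complement, had 3193 CPM (3116 to 3272) and was counted in 99.6% of members. Cd5l, a secreted scavenger-receptor protein, had 8398 CPM (8272 to 8524) and a median of 33 UMIs per cell. In 54 T cells, which should lack these genes, at least 1 UMI was counted in 2 cells for Marco, 7 for Clec4f, 1 for Cd163, 3 for Fcna and 7 for Cd5l, at a median depth of 4259 UMIs. Marco, Clec4f and Timd4 were used to choose the cells, so of the 5 markers of the label only Cd163 and Fcna were measured apart from the rule.

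**Figure D1:**
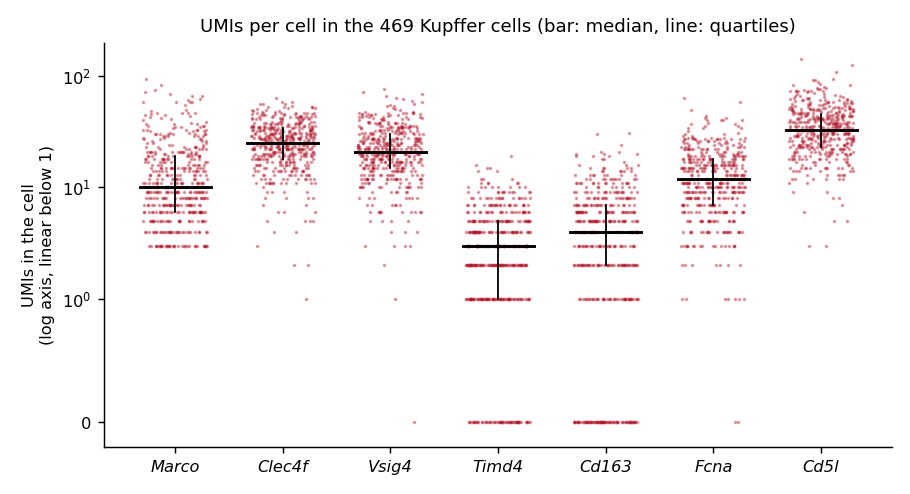
UMIs per cell (log axis, linear below 1) of 7 genes in the 469 Kupffer cells, 1 point per cell, with the median as a bar and the quartiles as a line. Medians were 10 for Marco, 25 for Clec4f, 21 for Vsig4, 3 for Timd4, 4 for Cd163, 12 for Fcna and 33 for Cd5l, and cells at 0 are seen mainly for Timd4 and Cd163.

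Of the markers of other types, erythroid ones were the most abundant in the members, at 11563 CPM over 6 markers and up to 516208 CPM in 1 cell. The other lists summed to 2067 CPM for 14 hepatocyte markers, 229 CPM for 9 mesothelial, 113 CPM for 10 stellate, 1161 CPM for 10 neutrophil, 279 CPM for 8 B and plasma cell, 679 CPM for 6 classical monocyte, 287 CPM for 10 sinusoidal endothelial and 8.36 CPM for 10 T and NK cell markers. Cd3d, Cd3e and Cd79a had no UMI in any member, whereas the 5 Kupffer markers summed to 14788 CPM. The share of other-type markers used below was taken over hepatocyte, mesothelial, stellate, neutrophil, T and NK, B and plasma, and basophil and mast cell markers. Erythroid, classical monocyte, sinusoidal endothelial, dendritic cell, and megakaryocyte and platelet markers were not part of it. This share reached 1% of UMIs in 9 members, or 1.92%, whereas haemoglobin beta alone made up at least 5% in 18 members. The part of RNA of other types in the results below was not tested, except where values without cells at 1% or more of this share are given.

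The start sites of Kupffer identity and interferon-stimulated genes, whose levels are compared below, were read for letters of factors that act in macrophages. Windows of 250 bases before to 50 after each start (RefSeq, GRCm38.p6) were searched on both strands for GAGGAAG, a core bound by ETS factors such as PU.1, the lineage factor of macrophages, and for GAAA, any 2 bases and GAAA again, the core of the interferon response element. The ETS core stood in 5 of 21 Kupffer list and C1q genes with a window (C1qc, Cd207, Cd5l, Fcna and Marco), against 13.6% of 32817 windows. The interferon core stood in none of those 21, but in 9 of 14 interferon-stimulated genes, against 3.43% of all windows. A base could count in matches of both cores, and a match is a description of letters. Windows of 15 bases on each side follow for some of the genes whose levels are described below, with the match in capitals, read along the gene's strand, so that CTTCCTC and TTTC stand for a match on the other strand.
Marco, chr1:120505149-120505185, minus strand: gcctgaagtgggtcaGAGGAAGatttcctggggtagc
Cd5l, chr3:87357799-87357835, plus strand: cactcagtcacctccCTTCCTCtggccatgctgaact
C1qc, chr4:136893087-136893123, minus strand: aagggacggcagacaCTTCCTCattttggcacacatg
Stat2, chr10:128270261-128270300, plus strand: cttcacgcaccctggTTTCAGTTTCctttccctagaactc
Ifit3, chr19:34583358-34583397, plus strand: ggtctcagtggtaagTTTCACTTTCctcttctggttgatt
Isg15, chr4:156200860-156200899, minus strand: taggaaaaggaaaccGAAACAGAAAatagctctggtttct
Rsad2, chr12:26456548-26456587, minus strand: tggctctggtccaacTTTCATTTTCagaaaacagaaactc

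The threshold on Marco was crossed gradually. Among cells that met every other criterion, 106 had no Marco UMI, 37 had 1, 28 had 2, 34 had 3, 92 had 4 to 6, 146 had 7 to 12 and 197 had 13 or more. Cells just outside the threshold, at 2 UMIs, had 5406 CPM of Clec4f, 700 CPM of Cd163 and 2057 CPM of Fcna. Cells just inside, at 3 UMIs, had 6183 CPM of Clec4f, 831 CPM of Cd163 and 2248 CPM of Fcna. Of 523 cells with at least 3 Marco UMIs, 1 missed the receptor criterion, 6 had too much Gpnmb and Spp1, and 47 carried too many cycling UMIs.

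Within the members, several genes not used by the rule were higher where Marco was higher. Fcna had 2248, 2434, 2816 and 3831 CPM over the 4 classes of 3, 4 to 6, 7 to 12 and at least 13 Marco UMIs. Cd163 had 831, 937, 1093 and 1358 CPM over the same classes, and Cxcl13, a chemokine that attracts B cells, had 150, 164, 222 and 346 CPM. Sdc3, a heparan sulphate proteoglycan, had 1417, 1451, 1935 and 2326 CPM. Clec4f stayed between 5890 and 6274 CPM over these classes. Median depth also climbed, at 3458.5, 3598.5, 3851 and 4531 UMIs per cell, and its part in this order was not tested.

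**Figure D2:**
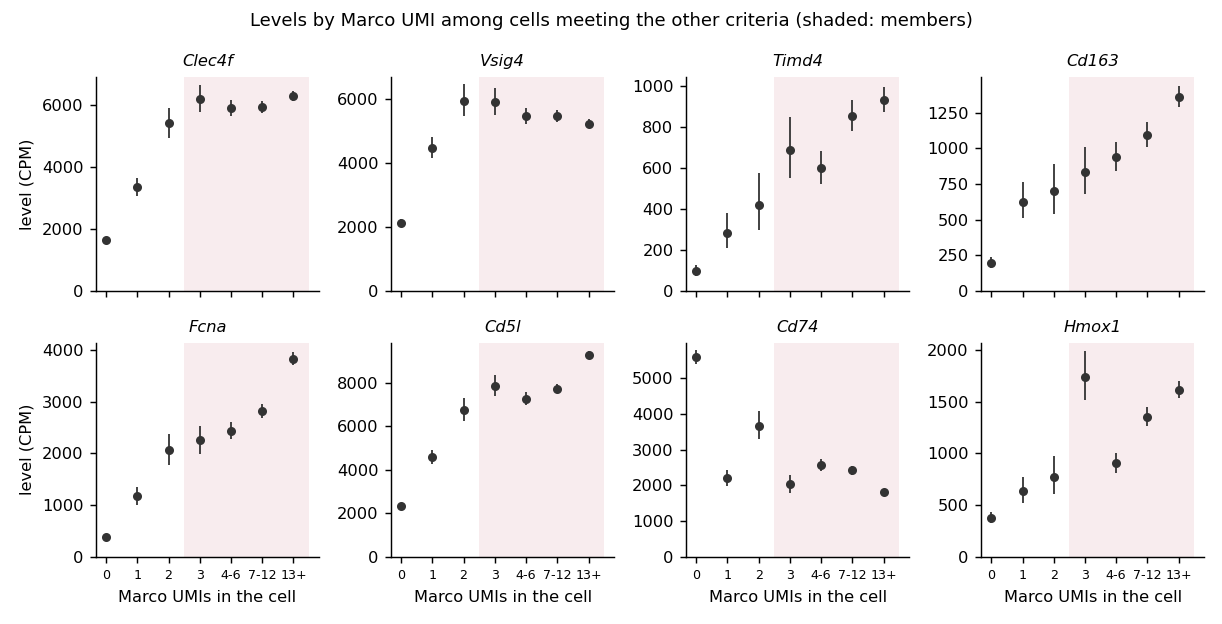
Levels (CPM, points, with 95% Poisson intervals as bars) of 8 genes in cells that met the other criteria, by Marco UMIs in the cell, with the members shaded. Fcna and Cd163 climb through the members, with 2248 and 831 CPM at 3 Marco UMIs and 3831 and 1358 CPM at 13 or more, while Clec4f stays between 5890 and 6274 CPM.

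To ask what accompanied Marco among macrophages with Kupffer receptors, members were set against the 106 cells that met every other criterion but had no Marco UMI. These Marco-0 cells were not a clean group. Other-type markers made up at least 1% of UMIs in 30.2% of them, and mesothelial markers summed to 229 CPM in Kupffer cells and 7397 CPM in Marco-0 cells. B and plasma cell markers summed to 279 CPM in Kupffer cells and 9679 CPM in Marco-0 cells. Of 15 tested genes set off by the dissociation of tissue, 0 were called higher and 5 lower. In the cells low in other types described below, 0 of 12 were higher and 0 lower, with a median log2 ratio of -0.22. The 12 lowest genes of this comparison included Slpi, the collagen gene Col3a1, the granule genes Mpo and Elane and the basophil protease Mcpt8. Slpi had 165 CPM in Kupffer cells and 5405 CPM in Marco-0 cells. A gene was called when it differed at least 2-fold after 20 CPM was added to each side. Of 3829 genes tested, 382 (9.98%) were higher and 359 (9.38%) lower in Kupffer cells.

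The comparison was therefore repeated with cells that had at least 3 UMIs of Cd68, Csf1r and Lyz2 and under 1% of other-type markers, an addition made after the data were seen, which left 460 Kupffer cells and 69 Marco-0 cells. Of 3670 genes, 111 (3.02%) were then higher and 75 (2.04%) lower, and the median over all genes was 0.05 on the log2 scale. Slpi turned to a log2 ratio of 0.43, and Prss34 to 0.26. Slpi was itself one of the mesothelial markers counted to remove cells, so its change follows in part from the filter.

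Kupffer identity genes remained on one side in these cleaner cells. Of 20 tested genes of that list outside the selection criteria, 11 were at least 2-fold higher and 0 lower, with a median log2 ratio of 1.21. Without the cleaning, 19 of 20 were higher and 0 lower, with a median of 1.92. Marco belongs to this list and chose both groups, and Marco-0 cells needed only 2 UMIs of Clec4f, Vsig4 and Timd4 together. The direction of the list is therefore not independent of the choice. Fcna had 3224 CPM in Kupffer cells and 764 CPM in Marco-0 cells, a ratio of 4.22 (3.67 to 4.88). Cdh5, the junction cadherin best known from endothelium, had 743 CPM in Kupffer cells and 199 CPM in Marco-0 cells, a ratio of 3.74 (2.84 to 5.03). The eosinophil-attracting chemokine Ccl24 had 851 CPM in Kupffer cells and 267 CPM in Marco-0 cells, and Cd163 had 1181 CPM in Kupffer cells and 401 CPM in Marco-0 cells. C6, a component of the complement membrane attack complex, had 1043 CPM in Kupffer cells and 355 CPM in Marco-0 cells. Folate receptor beta, Folr2, had 996 CPM in Kupffer cells and 370 CPM in Marco-0 cells.

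Genes outside the list showed differences of like size. Cxcl13 had 268 CPM in Kupffer cells and 34.4 CPM in Marco-0 cells low in other types, a ratio of 7.79 (4.07 to 17.1). Gbp2b, an interferon-inducible GTPase, had 228 CPM in Kupffer cells and 30.6 CPM in Marco-0 cells, a ratio of 7.47 (3.76 to 17.4). Adgre4, an adhesion receptor of macrophages, had 495 CPM in Kupffer cells and 153 CPM in Marco-0 cells, and the leukotriene C4 synthase gene Ltc4s had 134 CPM in Kupffer cells and 22.9 CPM in Marco-0 cells. Clec4f, Vsig4 and Cd5l, at 6157, 5468 and 8490 CPM in Kupffer cells against 3162, 4197 and 4712 CPM in Marco-0 cells, did not pass the 2-fold line. Without the cleaning all 3 were called higher, at 6099, 5386 and 8398 CPM in Kupffer cells against 1629, 2120 and 2345 CPM in Marco-0 cells. Both groups were required to have at least 2 UMIs of Clec4f, Vsig4 and Timd4 together, so Clec4f and Vsig4 were not measured apart from the rule.

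Several antigen presentation and lipid-handling genes were lower in Kupffer cells than in the same Marco-0 cells. Cd74, the invariant chain of MHC class II, had 2124 CPM in Kupffer cells and 10200 CPM in Marco-0 cells. Of 8 tested MHC class II genes, none of which chose either group, 4 were lower (Cd74, H2-Aa, H2-Ab1 and H2-Eb1) and 0 higher, with a median log2 ratio of -1.38. Without the cleaning the same 4 were lower, Ifi30 was higher and the median was -0.48. Over all genes 3.02% were higher and 2.04% lower in the cleaner cells, and 9.98% and 9.38% without the cleaning. Of 19 tested lipid-associated macrophage genes outside the criteria 7 were lower and 0 higher, with a median of -0.49. Without the cleaning 4 of 17 were lower and 1, Lpl, was higher, with a median of 0.06, and neither Trem2 nor Apoe was called, at log2 ratios of -0.85 and -0.66. Trem2, a lipid-sensing receptor, had 181 CPM in Kupffer cells and 676 CPM in Marco-0 cells. The tetraspanin Cd63 had 91.9 CPM in Kupffer cells and 588 CPM in Marco-0 cells. Apoe had 13287 CPM in Kupffer cells and 39007 CPM in Marco-0 cells. Ccr2, the receptor that brings monocytes to tissue, had 8.59 CPM in Kupffer cells and 103 CPM in Marco-0 cells. Some endothelial genes were still lower, with Aqp1 at 4.04 CPM in Kupffer cells and 134 CPM in Marco-0 cells, and their part in the other differences was not tested. Dendritic cell markers, also outside the filter, summed to 15.2 CPM over 7 markers in all Kupffer cells. In the Marco-0 cells low in other types they summed to 87.8 CPM, with up to 4342 CPM in a cell. The part of dendritic cells in the class II difference was not tested.

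Kupffer cells were also set against 910 Gpnmb Spp1 macrophages, cells with at least 20 UMIs of these genes together, at most 2 of Marco, at least 3 of Cd68, Csf1r and Lyz2 and fewer than 5 of the cycling genes. Their median depth was 6576.5 UMIs, above the 4139 of the Kupffer cells. Of 3593 genes, 456 (12.7%) were at least 2-fold higher and 195 (5.43%) lower in Kupffer cells, with a median log2 ratio of 0.17 over all genes. All 20 tested Kupffer identity genes outside the selection criteria were higher, with a median of 3.40. This list overlaps in meaning with the Marco, Clec4f, Vsig4 and Timd4 used to choose the members, so its direction is not independent of the choice. Fcna had 3193 CPM in Kupffer cells and 38.1 CPM in Gpnmb Spp1 macrophages, a ratio of 83.8 (73.9 to 95.5). Cd163 had 1175 CPM in Kupffer cells and 5.59 CPM in Gpnmb Spp1 macrophages, a ratio of 210.1 (152 to 299). C6 had 1029 CPM in Kupffer cells and 3.78 CPM in Gpnmb Spp1 macrophages, Cdh5 had 735 CPM in Kupffer cells and 2.57 CPM in Gpnmb Spp1 macrophages, and Ccl24 had 848 CPM in Kupffer cells and 5.44 CPM in Gpnmb Spp1 macrophages.

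Genes outside the list were also higher. Cd81, a tetraspanin, had 1307 CPM in Kupffer cells and 47.3 CPM in Gpnmb Spp1 macrophages. The formyl peptide receptor Fpr1 had 428 CPM in Kupffer cells and 8.61 CPM in Gpnmb Spp1 macrophages, cyclooxygenase 1 (Ptgs1) had 655 CPM in Kupffer cells and 28.0 CPM in Gpnmb Spp1 macrophages, and Plac8 had 598 CPM in Kupffer cells and 26.3 CPM in Gpnmb Spp1 macrophages. Mrc1, the mannose receptor, had 1184 CPM in Kupffer cells and 184 CPM in Gpnmb Spp1 macrophages. Axl, a receptor in the uptake of dying cells, had 538 CPM in Kupffer cells and 176 CPM in Gpnmb Spp1 macrophages.

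Of 20 tested lipid-associated macrophage genes outside the selection criteria 17 were lower in Kupffer cells and 0 higher, with a median of -2.30. This list overlaps in meaning with the Gpnmb and Spp1 used to choose that group, so its direction is not independent of the choice. Fabp5, a fatty acid carrier, had 17.2 CPM in Kupffer cells and 1806 CPM in Gpnmb Spp1 macrophages, a log2 ratio of -5.62. Cd63 had 89.5 CPM in Kupffer cells and 2539 CPM in Gpnmb Spp1 macrophages, and the galectin Lgals1 had 57.5 CPM in Kupffer cells and 1914 CPM in Gpnmb Spp1 macrophages. Atp6v0d2, a subunit of the proton pump of lysosomes, had 22.6 CPM in Kupffer cells and 781 CPM in Gpnmb Spp1 macrophages. Anxa1, the anti-inflammatory annexin, had 28.0 CPM in Kupffer cells and 639 CPM in Gpnmb Spp1 macrophages. Of 24 tested lysosome genes outside the criteria, 1 (Ctsc) was higher and 6 were lower, beside 12.7% higher and 5.43% lower over all genes. Among the 6 was Ctsd, at 3274 CPM in Kupffer cells and 13144 CPM in Gpnmb Spp1 macrophages.

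Against the 28 macrophages that carried Cx3cr1 and MHC class II (at least 2 UMIs of Cx3cr1, at least 3 of H2-Aa, H2-Ab1 and H2-Eb1, at most 2 of Marco, at most 1 of the Kupffer receptors, and the same limits on Gpnmb, Spp1 and cycling genes), 563 of 3921 genes (14.4%) were higher and 242 (6.17%) lower. That group held only 97860 UMIs, so counts of a few UMIs lie behind many of its low levels. Of 20 Kupffer identity genes outside the criteria 19 were higher and 0 lower, with a median of 3.73. The Kupffer receptors were required of the members and limited in that group, so this direction is not independent of the choice. Slc40a1, the iron exporter ferroportin, had 3540 CPM in Kupffer cells and 163 CPM in Cx3cr1 MHC II macrophages, a ratio of 21.7 (13.3 to 37.9). Cd5l had 8398 CPM in Kupffer cells and 562 CPM in Cx3cr1 MHC II macrophages, a ratio of 14.9 (11.5 to 19.8). Of 11 monocyte genes outside the criteria 7 were lower and 1 higher. Ccr2 had 8.36 CPM in Kupffer cells and 685 CPM in Cx3cr1 MHC II macrophages, and Chil3, a chitinase-like protein of monocytes, had 16.2 CPM in Kupffer cells and 470 CPM in Cx3cr1 MHC II macrophages. Cd74 had 2133 CPM in Kupffer cells and 27560 CPM in Cx3cr1 MHC II macrophages. Class II genes and the monocyte gene Cx3cr1 chose that group, so the directions of Cd74 and of the monocyte list are not independent of the choice. Apoe had 13106 CPM in Kupffer cells and 52473 CPM in Cx3cr1 MHC II macrophages.

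**Figure D3:**
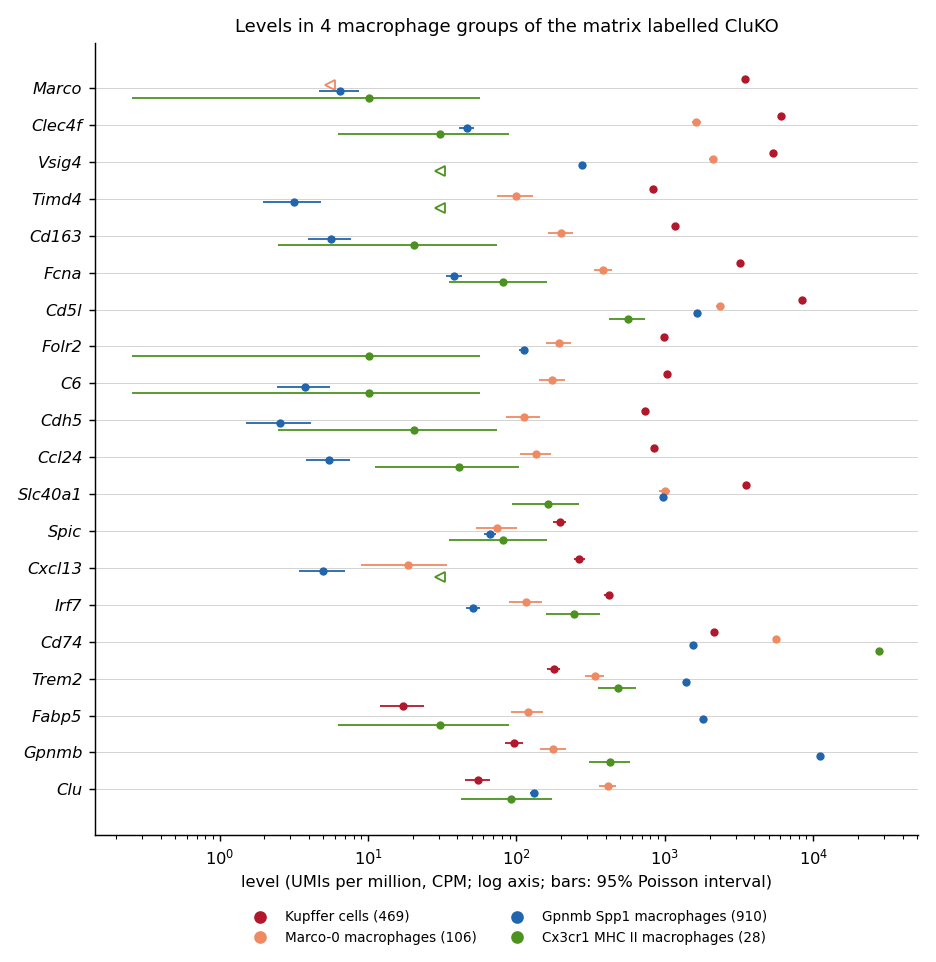
Levels (CPM, log axis) of 20 genes in 469 Kupffer cells, 106 Marco-0 macrophages, 910 Gpnmb Spp1 macrophages and 28 Cx3cr1 MHC II macrophages, points with 95% Poisson intervals, and open triangles for 0 UMIs, drawn at the level 3 UMIs would give. Fcna stands at 3193 CPM in Kupffer cells and at 382, 38.1 and 81.7 CPM in the other groups, whereas Fabp5 stands at 17.2 CPM in Kupffer cells and at 1806 CPM in Gpnmb Spp1 macrophages.

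Scavenger and complement genes included both higher and lower members. Of 13 tested scavenger genes outside the criteria 7 were higher and 2 lower than in Gpnmb Spp1 macrophages, beside 12.7% higher and 5.43% lower over all genes. Msr1, the class A scavenger receptor, had 752 CPM in Kupffer cells and 331 CPM in Gpnmb Spp1 macrophages, and Stab2, a hyaluronan receptor, had 198 CPM in Kupffer cells and 15.0 CPM in Gpnmb Spp1 macrophages. Cd36, the fatty acid translocase, had 548 CPM in Kupffer cells and 1676 CPM in Gpnmb Spp1 macrophages. Of 15 complement genes outside the criteria 7 were higher and 3 lower. Properdin, Cfp, had 2474 CPM in Kupffer cells and 609 CPM in Gpnmb Spp1 macrophages, and C4b had 358 CPM in Kupffer cells and 10.4 CPM in Gpnmb Spp1 macrophages. The anaphylatoxin receptors C3ar1 and C5ar1 were at 215 and 103 CPM in Kupffer cells, against 758 and 297 CPM in Gpnmb Spp1 macrophages. C1qb, at 5524 CPM in Kupffer cells and 4452 CPM in Gpnmb Spp1 macrophages, differed by less than 2-fold, as did C1qc, at 7062 CPM in Kupffer cells and 4100 CPM in Gpnmb Spp1 macrophages. Against Marco-0 cells low in other types, 1 of 13 scavenger genes outside the criteria (Cd163) was higher and 0 lower. Of 15 complement genes 4 were higher and 2 lower, beside 3.02% and 2.04% over all genes. Without the cleaning 5 of 13 scavenger and 4 of 14 complement genes were higher, and 0 and 2 lower, beside 9.98% and 9.38% over all genes.

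Among iron and haem genes, 3 of 16 tested were higher than in Gpnmb Spp1 macrophages (Cd163, Slc40a1 and Spic) and 2 were lower, near the 12.7% higher and 5.43% lower over all genes, so these counts are no result about iron genes as a group. Slc40a1 had 3540 CPM in Kupffer cells and 975 CPM in Gpnmb Spp1 macrophages, and Spic, the factor that drives iron-recycling macrophages, had 196 CPM in Kupffer cells and 66.5 CPM in Gpnmb Spp1 macrophages. The ferritin chains were the 2 lower genes, with Fth1 at 3603 CPM in Kupffer cells and 13485 CPM in Gpnmb Spp1 macrophages, and Ftl1 at 2256 CPM in Kupffer cells and 9472 CPM in Gpnmb Spp1 macrophages. Haem oxygenase 1, Hmox1, had 1424 CPM in Kupffer cells and 1765 CPM in Gpnmb Spp1 macrophages and was not called. Against Cx3cr1 MHC II macrophages 7 of 15 tested were higher, beside 14.4% of all genes, including Hmox1 at 1424 CPM in Kupffer cells and 184 CPM in Cx3cr1 MHC II macrophages. Against Marco-0 cells low in other types, 1 of 15 (Cd163) was higher and 0 lower, beside 3.02% and 2.04% over all genes. Without the cleaning 6 of 16 were higher and 1 lower, beside 9.98% and 9.38%.

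Nr1h3, which encodes the sterol receptor LXR alpha and is a Kupffer lineage factor, had 675 CPM in Kupffer cells, 174 CPM in Gpnmb Spp1 macrophages and 204 CPM in Cx3cr1 MHC II macrophages. Of 15 tested cholesterol and LXR genes 5 were higher than in Gpnmb Spp1 macrophages (Apoc1, Nr1h3, Pltp, Scd1 and Scd2) and Apoe was lower. Over all genes 12.7% were higher and 5.43% lower in that comparison. Apoc1 had 3136 CPM in Kupffer cells and 202 CPM in Gpnmb Spp1 macrophages, whereas Apoe had 13106 CPM in Kupffer cells and 52082 CPM in Gpnmb Spp1 macrophages. Among 19 tested transcription factors, 7 were higher (Id1, Irf7, Klf2, Maf, Nr1h3, Rxra and Spic) and Id2 was lower, beside the same shares over all genes. Klf2 had 377 CPM in Kupffer cells and 61.5 CPM in Gpnmb Spp1 macrophages. Spi1, the gene of PU.1, had 681 CPM in Kupffer cells and 537 CPM in Gpnmb Spp1 macrophages and was not called. Id3, required for Kupffer cell maintenance in mice, had 624 CPM in Kupffer cells and 438 CPM in Gpnmb Spp1 macrophages, also under 2-fold. Against Marco-0 cells low in other types, 0 of 18 tested transcription factors were higher and Id2 was lower. Without the cleaning 6 of 19 were higher and 1 lower. Of 17 cholesterol and LXR genes 2 (Scd1 and Scd2) were higher and Apoe was lower in the cleaner cells. Without the cleaning 8 of 15 were higher and 0 lower. Over all genes 3.02% were higher and 2.04% lower in the cleaner cells, and 9.98% and 9.38% without the cleaning. The transcription factor counts in the cleaner cells are near those shares and are no result about that list.

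Interferon-stimulated genes were mostly higher in Kupffer cells than in Gpnmb Spp1 macrophages. Of 14 tested, 11 were higher than in Gpnmb Spp1 macrophages and 0 lower, with a median of 1.59. Over all genes 12.7% were higher and 5.43% lower. Irf7 had 418 CPM in Kupffer cells and 51.2 CPM in Gpnmb Spp1 macrophages, and Ifit3 had 154 CPM in Kupffer cells and 21.6 CPM in Gpnmb Spp1 macrophages. Stat2 had 120 CPM in Kupffer cells and 26.6 CPM in Gpnmb Spp1 macrophages. Rsad2 had 59.0 CPM in Kupffer cells and 18.0 CPM in Gpnmb Spp1 macrophages. Isg15, at 75.2 CPM in Kupffer cells and 32.5 CPM in Gpnmb Spp1 macrophages, was not called. Against Cx3cr1 MHC II macrophages, 0 of 15 were called in either direction and the median was 0.03, beside 14.4% higher and 6.17% lower over all genes. Against Marco-0 cells low in other types 1 of 14, Stat2, was higher and 0 lower, with a median of 0.63. This count is near the 3.02% higher and 2.04% lower over all genes and is no result about the list. Without the cleaning 9 of 14 were higher and 0 lower, beside 9.98% and 9.38% over all genes. The difference between these comparisons was not tested, and they share the Kupffer cells.

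**Figure D4:**
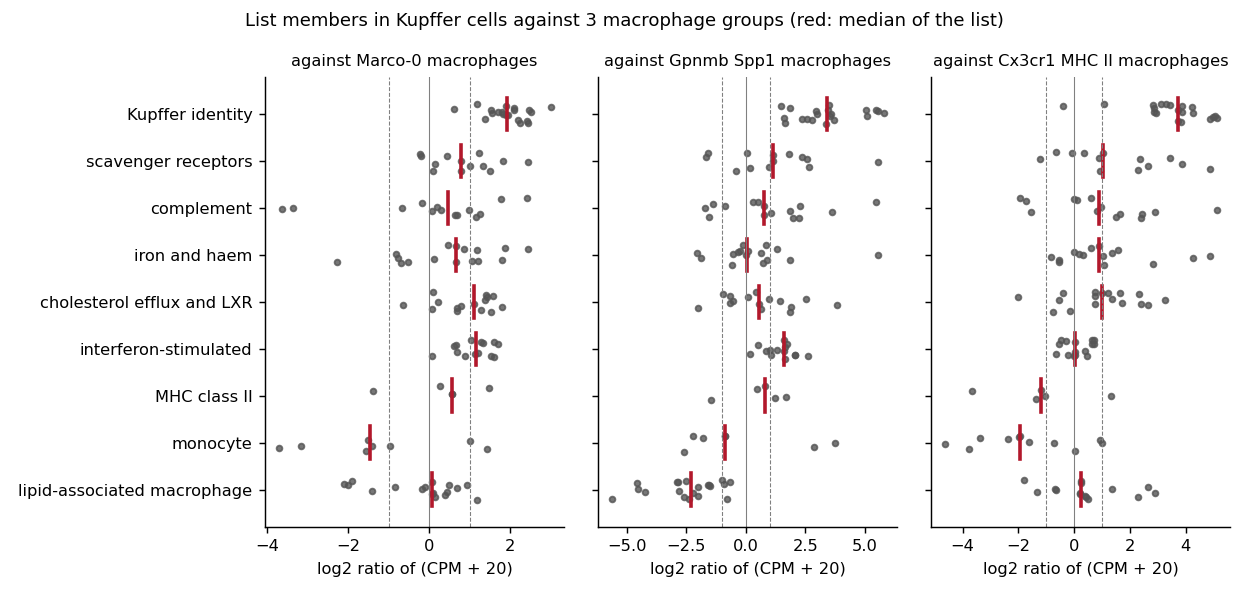
Log2 ratios of CPM with an offset of 20 CPM for the tested genes of 9 lists, genes of the selection criteria left out, in Kupffer cells against each of 3 macrophage groups, with the median of each list in red and dashed lines at 2-fold. The Kupffer identity median stands at 1.92, 3.40 and 3.73, and the interferon-stimulated median at 1.17, 1.59 and 0.03.

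Clusterin, the gene named in the genotype, had 112 UMIs in the Kupffer cells, 55.1 CPM (45.4 to 66.3), with at least 1 UMI in 17.3% of cells. T cells had 83.3 CPM and UMIs in 7 of 54 cells, at a median depth of 4259 UMIs against 4139 in Kupffer cells. Of the 25 Clu UMIs of T cells, 17 lay in a single cell, so their CPM does not show more Clu than in Kupffer cells. Csf1r, a macrophage gene, was counted in 9 of the T cells, so that group was not free of RNA of other types. Clu had 511 CPM over all other cells of the matrix, so the matrix labelled CluKO held counts of the targeted gene. The source of these counts was not tested. Lrp2, an endocytic receptor for clusterin, had 2 UMIs in all Kupffer cells. Lrp1, a related receptor, had 2642 CPM in Kupffer cells and 2340 CPM in Gpnmb Spp1 macrophages.

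Members with at least 1 Timd4 UMI numbered 415, and 54 had none. Median depth was 4214 UMIs in Timd4-positive cells and 3428.5 UMIs in Timd4-0 cells. Of 3700 genes, 17 (0.459%) were at least 2-fold higher in Timd4-positive cells and 44 (1.19%) lower. These counts depended on the settings, and among the alternatives run the number higher was 14 to 94 and the number lower 33 to 108. In cells of 3000 to 10000 UMIs 39 were higher and 46 lower. With every cell at 2000 UMIs and the count minimum lowered from 30 to 10, 94 were higher and 108 lower. None of 20 Kupffer identity genes outside the criteria was called, and their median was 0.37. Cd163 had 1226 CPM in Timd4-positive cells and 727 CPM in Timd4-0 cells, under the 2-fold line. Cxcl13 had 288 CPM in Timd4-positive cells and 76.1 CPM in Timd4-0 cells, a ratio of 3.79 (2.31 to 6.67). Saa3, an acute-phase protein, had 287 CPM in Timd4-positive cells and 61.8 CPM in Timd4-0 cells, a log2 ratio of 1.91 that fell under the 2-fold line, to 0.57, without cells rich in other-type markers.

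Of 16 tested lipid-associated macrophage genes outside the criteria, 3 (Atp6v0d2, Cd63 and Mmp12) were lower in Timd4-positive cells and 0 higher. Mmp12, the macrophage elastase, had 196 CPM in Timd4-positive cells and 1008 CPM in Timd4-0 cells. Cd63 had 66.9 CPM in Timd4-positive cells and 285 CPM in Timd4-0 cells, Atp6v0d2 had 11.5 CPM in Timd4-positive cells and 119 CPM in Timd4-0 cells, and S100a6 had 20.3 CPM in Timd4-positive cells and 166 CPM in Timd4-0 cells. Of 7 tested monocyte genes outside the criteria 5 were lower and 0 higher, but one of them, S100a8, went under the 2-fold line without cells rich in other-type markers, with a log2 ratio of -0.64 against -2.70. Neutrophil markers moved with these groups, at 783 CPM in Timd4-positive cells and 4435 CPM in Timd4-0 cells over 10 markers, with 0 of 10 at 0 UMIs in either, and in 1 Timd4-0 cell they reached 208722 CPM. Erythroid markers summed to 9903 CPM in Timd4-positive cells and 25946 CPM in Timd4-0 cells. Retnlg and S100a9, among the 8 lowest genes, had log2 ratios of 0.35 and 0.46 without cells rich in other-type markers. Retnlg, S100a8 and S100a9 were among the neutrophil markers counted to remove cells, so their changes follow in part from the filter. In the cells left by this filter the log2 ratio was -2.26 for Mmp12, -1.82 for Cd63, -2.16 for Atp6v0d2, -1.55 for S100a6 and 1.66 for Cxcl13.

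The spread of counts among members was measured at equal depth. After each member was reduced to 2000 UMIs, genes with a mean of at least 0.1 UMI were kept. The median ratio of variance to mean (the Fano factor, 1 for Poisson counting) was 1.16 over 3201 genes. For genes of low mean count this ratio stays near 1 even where levels differ between cells, so it does not show that members were alike. The highest values were those of RNA typical of other cells. Hbb-bs reached 240.0 and the immunoglobulin chain Igkc 238, and S100a8, a neutrophil calcium-binding protein, 126. Haemoglobin beta made up a median of 0.525% of UMIs in members and at least 5% in 18 of them, and Igkc at least 5% in 1. Saa3 had a value of 28.6, Apoe 12.1, Wfdc17 10.2, Mmp12 9.31, Slpi 7.99, Hmox1 7.23 and Cd74 5.57.

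**Figure D5:**
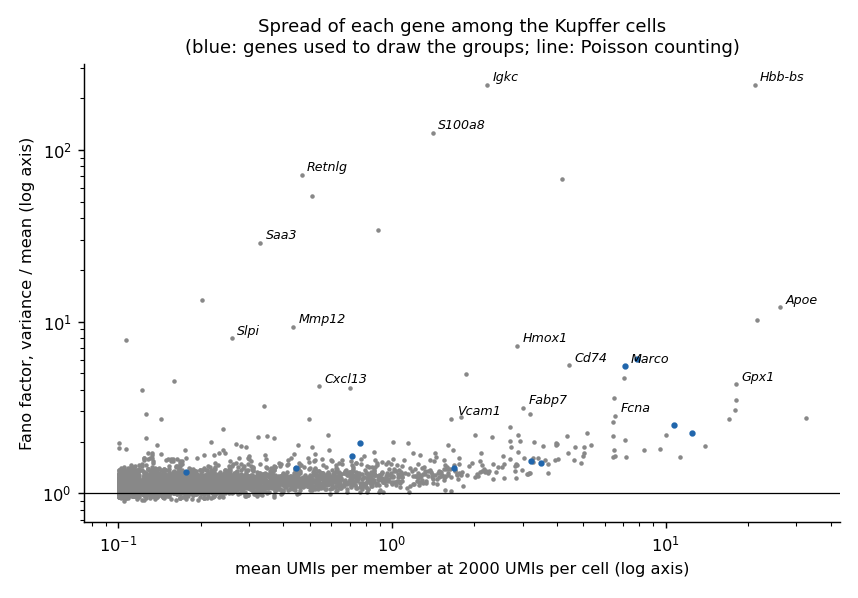
Variance over mean of each gene among the 469 Kupffer cells at 2000 UMIs per cell (log axis) against its mean (log axis), 1 point per gene, genes used to draw the groups in blue and Poisson counting as a line at 1. Hbb-bs, Igkc and S100a8 lie highest, from 126 to 240.0, and Hmox1 and Cd74 stand at 7.23 and 5.57.

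Hmox1 and Cd74 were each used to split the members after their spread was seen, and these ranges are not cell types. The 122 members with at least 4 Hmox1 UMIs at 2000 were set against the 150 with none. Median depths were 4142 UMIs in Hmox1-high members and 4108 UMIs in Hmox1-0 members. Of 3693 genes 10 (0.271%) were higher and 20 (0.542%) lower. Saa3 had 770 CPM in Hmox1-high and 75.2 CPM in Hmox1-0 members, and single members held up to 66 Saa3 UMIs at 2000, and the part of such cells in this difference was not tested. The haem transporter Slc48a1 had 298 CPM in Hmox1-high members and 156 CPM in Hmox1-0 members, and Marco had 4169 CPM in Hmox1-high members and 2676 CPM in Hmox1-0 members, both under 2-fold.

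The 131 members with at least 6 Cd74 UMIs were set against the 149 with at most 1. Of 3624 genes 15 (0.414%) were higher and 21 (0.579%) lower in Cd74-high members. The class II chains H2-Aa, H2-Ab1 and H2-Eb1 were among those higher, with H2-Aa at 722 CPM in Cd74-high and 115 CPM in Cd74-low members. The interferon-gamma-induced chemokine Cxcl9 had 67.0 CPM in Cd74-high members and 4.54 CPM in Cd74-low members, a ratio of 14.8 (4.67 to 74.8) that rests on 3 UMIs in Cd74-low members. Cxcl13 had 356 CPM in Cd74-high members and 150 CPM in Cd74-low members. Fcna, at 3049 CPM in Cd74-high members and 3215 CPM in Cd74-low members, and Slc40a1, at 3494 CPM in Cd74-high members and 3711 CPM in Cd74-low members, differed by far less. In both splits S100a8 was lower in the high members, at 313 CPM in Hmox1-high against 1295 CPM in Hmox1-0 members, and at 212 CPM in Cd74-high against 1291 CPM in Cd74-low members, and the part of neutrophil RNA in these splits was not tested.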

How the data were processed

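Liver was dissociated with Singleron GEXSCOPE enzyme solution and red cells were lysed, per the labels' protocols. GEXSCOPE kits tag transcripts with UMIs, and whole-number values are called UMIs on that ground. The deposited matrix holds counts per gene and cell, whole numbers used as the authors deposited them. Its gene table, with symbols, and its barcode list were deposited beside it. Per the submitters' processing notes the build was GRCm38. Aligner, counter and cell calling: not given in the sources used here. Per-sample columns of unknown sample numbered 0. Counts of 118 symbols on more than 1 identifier were summed.

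Members and gene lists were chosen with earlier results of these data known. Counts were summed over cells of a group and scaled to 1000000 (CPM). A gene was tested when its counts over both groups reached 30 and its level in either reached 50 CPM, and called at 2-fold on log2 of the ratio of CPM plus 20. With 1 pooled matrix no test across samples was possible and no p-value is given. Named genes were list members, markers and, by log2 ratio, the 12 highest and 12 lowest of each group comparison and the 8 highest and 8 lowest of the Timd4 comparison, leaving out selection genes and haemoglobin, immunoglobulin, ribosomal, mitochondrial, Y-linked, Gm- and Rik-named genes, Malat1, Neat1, Xist and the 50 genes highest in cells with an Alb share of at least 1%. Other genes named (S100a8, Igkc, Hbb-bs, Wfdc17, Cxcl9 and those of the Hmox1 and Cd74 splits) were chosen after their values were seen. Of 431 list and marker genes 427 were found.

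Scrublet (scanpy 1.11.5) marked 6 of 4616 cells (0.13%), 1 of them a member. It marked too few to be taken as working, so no cell was removed. Python 3.11.15, numpy 2.4.6, pandas 2.3.3, scipy 1.17.1 and matplotlib 3.10.9 were used, and the comparison code was tested on simulated counts. Alternatives were an offset of 5 CPM, a count minimum of 10 without the CPM minimum, other Marco and Gpnmb limits and a depth window. Further ones were thinning with a count minimum of 10, a mean over cells and removal of hepatocyte-marked cells. Cells low in other types, the wider Cx3cr1 group and both splits were added after the data were seen. No promoter of a gene without a RefSeq window was searched.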

Additional observations from a re-analysis of the deposited data

How the results depend on the processing

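Counts of genes in the comparison with Gpnmb Spp1 macrophages and the number of members stayed within 1.5 times under the alternatives run, at 445 to 621 genes higher, 186 to 256 lower and 390 to 469 members. Against Cx3cr1 MHC II macrophages, genes higher numbered 1063 of 9725 tested with a count minimum of 10, beside 563 of 3921 in the main run. Genes lower numbered 379 with an offset of 5 CPM, 376 of 9725 tested with a count minimum of 10 and 383 after thinning. They numbered 151 with up to 19 Gpnmb and Spp1 UMIs allowed in that group. Against Marco-0 cells, genes higher numbered 228 in cells of 3000 to 10000 UMIs, 224 as a mean over cells and 111 in cells low in other types. Genes lower numbered 567 of 10529 tested with a count minimum of 10, beside 359 of 3829 in the main run, and 75 in cells low in other types. For Timd4-positive against Timd4-0 cells, genes higher numbered 65 with an offset of 5 CPM, 74 with a count minimum of 10, 45 with at least 5 Marco UMIs, 28 with at most 2 Gpnmb and Spp1 UMIs, 29 without the cells highest in hepatocyte markers, 39 in cells of 3000 to 10000 UMIs and 94 after thinning. Genes lower in that comparison numbered 89 with an offset of 5 CPM, 67 with a count minimum of 10 and 108 after thinning. Log2 ratios that changed sign were those of Elane (0.058 with at most 2 Gpnmb and Spp1 UMIs and 0.036 in cells low in other types), Prss34 (0.26) and Slpi (0.43) against Marco-0 cells, and Retnlg (0.35) and S100a9 (0.46) between the Timd4 groups, all in cells low in other types. Elane, Slpi, Retnlg and S100a9 were among the markers counted to find cells low in other types, so their changes in those cells follow in part from the filter. Saa3 in the Timd4 comparison had 0.57 in cells low in other types, against 1.91. The count minimum of 10 was run without the minimum of 50 CPM. It tested 9725 genes against Cx3cr1 MHC II macrophages, 10529 against Marco-0 cells, 11983 against Gpnmb Spp1 macrophages and 9595 between the Timd4 groups. The main run tested 3921, 3829, 3593 and 3700, so the counts have unlike totals. Thinning to 2000 UMIs was also run with a count minimum of 10. Lower minimums test more genes, and the cause of the other shifts was not tested. Among the other values of named genes 721 stayed within the counting interval of the main value and 177 moved beyond it. No paired analysis was possible because the samples are pooled in 1 matrix. Low levels rest on few UMIs, most of all in the 28 Cx3cr1 MHC II macrophages.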
